A study of Mus musculus with 16 samples.

Results

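The genes described here are the immediate early transcription factors Fos, Fosb, Fosl2, Junb, Egr1, Egr2, Egr4, Npas4 and Nr4a1, and Arc, which is switched on with them. They are 10 of the 55487 genes in a table of read counts from mouse brain, and each of the 10 symbols was found once. The set was chosen by its role, primary activity-induced genes, at a time when results of the treatment and genotype comparisons of these same mice were already known. Their differences between the groups are therefore given as a description, with standard errors and without a test over the set.

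Bulk brain RNA from 16 female mice on a C57/bl6 background was sequenced, 4 in each of 4 groups. All mice carried a human CETP transgene in the heterozygous state under its own human promoter (CETPtg), and 8 of them carried in addition a human APP transgene with familial Alzheimer mutations under the neuronal Thy1 promoter (APPtg/CETPtg). From early adulthood, the mice of each genotype received either evacetrapib, an inhibitor of CETP (cholesteryl ester transfer protein, which moves neutral lipids between plasma lipoproteins), at 30 mg/kg daily or its vehicle for 11 weeks, and all were fed 1% cholesterol. Tissue was collected within hours of the last injection. The cerebrum of non-perfused mice was, by the methods, divided into quadrants before freezing, and the labels do not say which part of the brain each library came from. The vehicle mice are called S1 to S4 (CETPtg) and S5 to S8 (APPtg/CETPtg), and the evacetrapib mice A to D (CETPtg) and E to H (APPtg/CETPtg), as in the labels.

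Immediate early genes are transcribed within minutes of a stimulus, without the need for new protein, and their transcripts decay quickly. In neurons the stimulus is calcium entry through glutamate receptors and voltage-gated channels, which activates kinases that act on the factors CREB and SRF already bound at the promoters. Fos, Fosb and Fosl2 encode proteins that pair with a Jun protein such as Junb to form the factor AP-1. Egr1, Egr2 and Egr4 encode zinc finger factors, Npas4 a factor confined largely to neurons and especially responsive to calcium, and Nr4a1 an orphan nuclear receptor. Arc encodes a synaptic protein that promotes the removal of AMPA receptors from the postsynaptic membrane. The transcripts are known to follow recent experience, arousal and handling as well as lasting changes in a circuit.

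The stretches before the starts of the genes are shown first for a few of them. RefSeq start sites on GRCm38.p6 were available for 8 of the 10 genes (not for Egr1 and Arc), and the 250 bases before each start were searched on both strands. The motifs were the full CRE to which CREB binds (TGACGTCA), the CRE core (TGACG, which the full CRE contains), the AP-1 site (TGACTCA or TGAGTCA), the EGR site (GCGTGGGCG or GCGGGGGCG) and the CArG box of SRF. Fos (chr12:85473640-85473889, + strand), Egr2 (chr10:67537619-67537868, + strand), Egr4 (chr6:85513590-85513839, - strand) and Npas4 (chr19:4989972-4990221, - strand) are shown as examples that hold 2 CRE cores each (Nr4a1 holds 4 and is not shown). Fosl2 (chr5:32136222-32136471, + strand) is shown as an example that holds none. Each is written 5′ to 3′ on the strand of the gene, and capitals mark the motifs found. For Egr2 the table gives 5 start sites, and the window shown belongs to one of the 3 neighbouring starts whose windows hold the cores, inside the gene span given below, while the windows of the other two starts, the first at the beginning of that span, hold none. The windows of Fosl2 and Npas4 also lie inside their gene spans.
Fos: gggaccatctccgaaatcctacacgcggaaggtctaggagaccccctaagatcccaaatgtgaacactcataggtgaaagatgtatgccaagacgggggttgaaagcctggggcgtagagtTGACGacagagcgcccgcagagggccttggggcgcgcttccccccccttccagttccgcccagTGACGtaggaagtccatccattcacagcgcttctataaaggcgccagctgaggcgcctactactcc
Egr2: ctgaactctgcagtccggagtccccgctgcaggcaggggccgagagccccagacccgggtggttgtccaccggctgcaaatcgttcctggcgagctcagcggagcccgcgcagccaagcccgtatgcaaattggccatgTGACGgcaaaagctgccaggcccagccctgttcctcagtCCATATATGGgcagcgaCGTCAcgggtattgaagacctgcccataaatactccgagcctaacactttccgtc
Egr4: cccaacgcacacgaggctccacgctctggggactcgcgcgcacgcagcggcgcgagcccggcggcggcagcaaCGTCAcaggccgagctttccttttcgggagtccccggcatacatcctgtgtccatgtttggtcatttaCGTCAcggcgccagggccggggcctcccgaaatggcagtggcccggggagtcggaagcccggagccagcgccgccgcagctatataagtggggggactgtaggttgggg
Npas4: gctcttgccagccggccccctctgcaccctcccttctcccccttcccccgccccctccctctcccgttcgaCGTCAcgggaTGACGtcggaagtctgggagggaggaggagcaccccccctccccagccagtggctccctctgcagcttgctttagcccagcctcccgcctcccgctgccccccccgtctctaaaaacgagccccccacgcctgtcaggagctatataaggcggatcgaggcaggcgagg
Fosl2: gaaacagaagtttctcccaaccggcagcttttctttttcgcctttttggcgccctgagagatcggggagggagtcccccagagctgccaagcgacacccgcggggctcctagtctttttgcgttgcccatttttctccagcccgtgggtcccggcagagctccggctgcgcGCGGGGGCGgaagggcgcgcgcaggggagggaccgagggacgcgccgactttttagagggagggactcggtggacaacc
In these sequences the CRE cores begin 129 and 66 bases before the start in Fos, 111 and 55 in Egr2, 177 and 109 in Egr4, and 179 and 169 in Npas4. The other capitals in Egr2 are a CArG box 72 bases before the start, and those in Fosl2 an EGR site 79 bases before it.

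Over all 8 genes with a window, 7 held the CRE core (all but Fosl2), against 19.8% of 27025 genes in the same table. The full CRE was found in 0 of the 8 (1.77% of all genes) and the AP-1 site in 0 (5.16%). The EGR site was found in 3, Fosb, Fosl2 and Nr4a1 (3.47% of all genes), and the CArG box in 1, Egr2 (1.62%). A match describes the letters of the window and not the binding of a factor, and the part of the motifs in the levels of the genes was not tested. The genes are also short. Egr4 spans 2.47 kb, Fos 3.38 kb, Arc 3.49 kb, Junb 4.24 kb, Egr1 5.16 kb, Npas4 5.96 kb, Egr2 6.71 kb and Fosb 7.36 kb, while Nr4a1 (20.5 kb) and Fosl2 (22.0 kb) lie closer to the median of 25.0 kb of the 15158 protein-coding genes tested.

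Libraries held between 21391335 and 55453789 counts, and depth differed by genotype. Apart from S8, which held the most, APPtg/CETPtg libraries held 21391335 to 27398792 counts and CETPtg libraries 28626139 to 46800787. Levels are given as CPM, the count per 1000000 counts of the library, with library sizes adjusted by TMM scaling. All 10 genes passed the filter of at least 10 counts in at least 4 mice. The smallest count behind any value was 34, for Egr2 in mouse F. Mouse Thy1, whose promoter drives the APP transgene, was at 865 CPM or more in each APPtg/CETPtg mouse and at 807 CPM or less in each CETPtg mouse, so the libraries matched their genotype labels. Bulk RNA cannot tell fewer active cells from less RNA per cell. The libraries of the genotypes lay in different columns of the index plate and those of the treatments in different rows, so plate position and group cannot be told apart.

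Corrected for exon length, the most abundant of the genes over the 16 mice was Egr1, with a mean of 60.2 CPM per kb, followed by Arc with 54.7, Junb with 31.4, Nr4a1 with 28.0 and Egr4 with 18.5. Fos had a mean of 10.4 CPM per kb, Npas4 4.52, Fosl2 3.26, Fosb 2.66 and Egr2 1.79. The most abundant genes were not the most variable. Egr2 differed 12.5-fold in CPM between its lowest and highest mouse, Fos 9.27-fold and Arc 5.79-fold, whereas Egr1 differed 3.07-fold and Fosl2 2.71-fold.

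**Figure D1:**
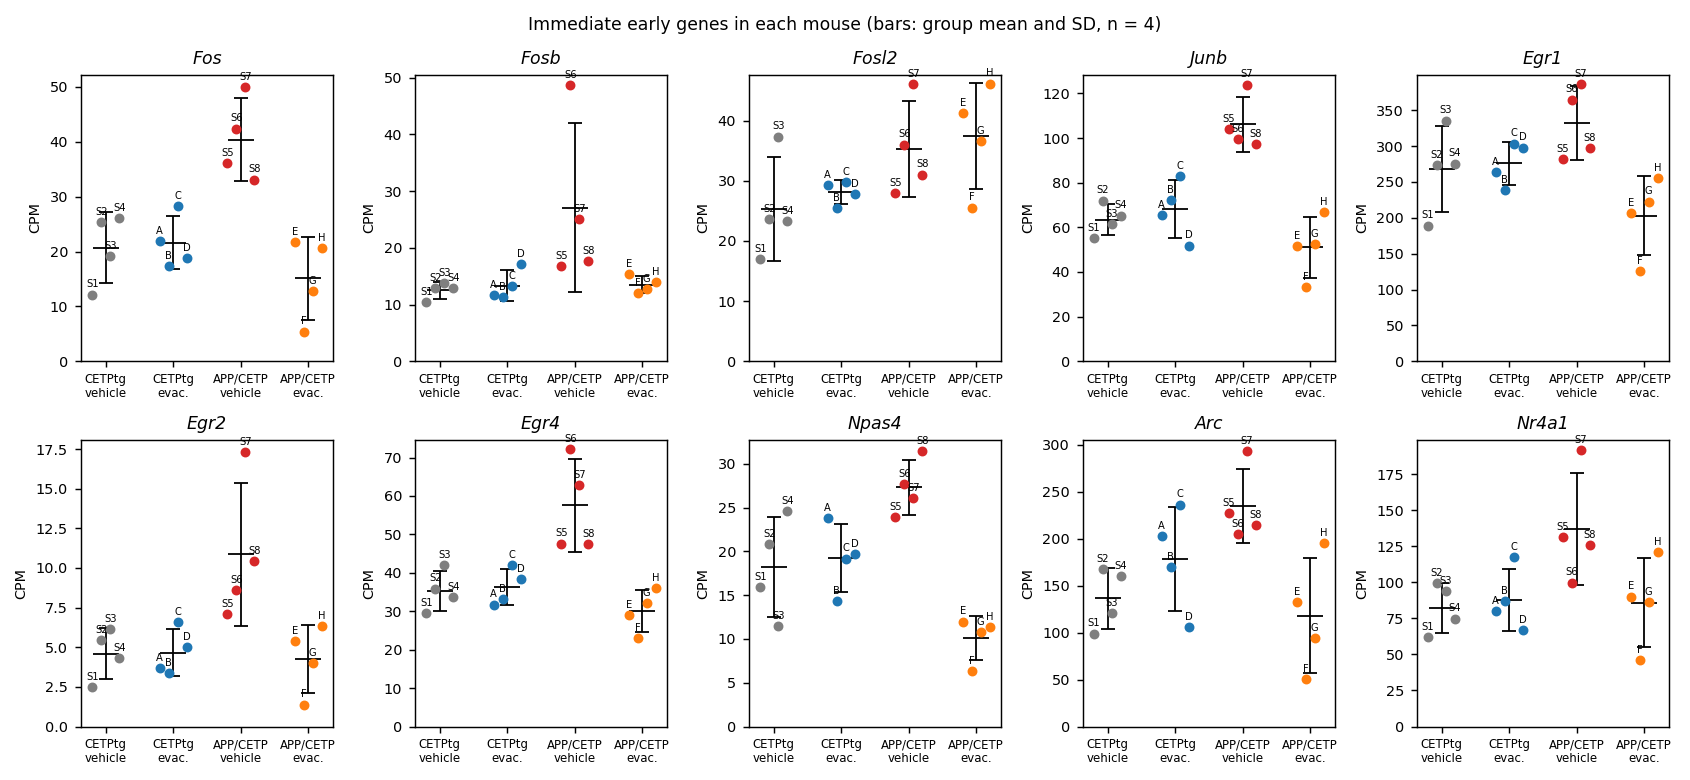
CPM of each of the 10 genes (y axes, each from 0) in each mouse (points with the mouse's name), by group on the x axis (APP/CETP stands for APPtg/CETPtg, evac. for evacetrapib), with the mean and SD of 4 mice as bars. The APPtg/CETPtg vehicle mice have the highest mean in 9 of the 10 panels, Fosl2 being the exception, and mouse F is the lowest of its group in all 10.

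Fos (ENSMUSG00000021250, GRCm38 chromosome 12, 85473890 to 85477273) had 12.1, 25.4, 19.1 and 26.1 CPM in CETPtg vehicle mice S1 to S4 and 21.9, 17.4, 28.3 and 18.8 CPM in CETPtg evacetrapib mice A to D. In the APPtg/CETPtg genotype, Fos was at 36.1, 42.4, 50.03 and 33.1 CPM with vehicle (S5 to S8) and at 21.7, 5.40, 12.8 and 20.6 CPM with evacetrapib (E to H). The 4 APPtg/CETPtg vehicle mice were above each of the other 12 mice, and the other groups overlapped. Their mean was 40.4 ± 7.49 CPM (SD, n = 4), against 20.7 ± 6.52 in CETPtg vehicle, 21.6 ± 4.84 in CETPtg evacetrapib and 15.1 ± 7.58 in APPtg/CETPtg evacetrapib mice (SD, n = 4 each).

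Junb (ENSMUSG00000052837, chromosome 8, 84974484 to 84978718), the Jun partner in the set, had 55.0, 72.0, 61.6 and 65.2 CPM in S1 to S4 and 65.6, 72.3, 83.0 and 51.9 CPM in A to D. It had 104, 99.4, 124 and 97.1 CPM in S5 to S8 and 51.5, 33.3, 52.4 and 66.7 CPM in E to H. As for Fos, the APPtg/CETPtg vehicle mice stood above all others without overlap, with a mean of 106 ± 12.2 CPM against 51.0 ± 13.7 CPM with evacetrapib (SD, n = 4 each). The annotation places Junb partly over Prdx2 on the opposite strand, and the strand setting of the counting is not given in the sources used here. Prdx2, a peroxiredoxin, did not share the difference between treated and untreated APPtg/CETPtg mice, with a log2 fold change of -0.03 ± 0.04 (SE), against -1.06 ± 0.16 for Junb. Between vehicle mice, however, Prdx2 was called higher in APPtg/CETPtg than in CETPtg (0.23 ± 0.04, adjusted p = 0.00443 in edgeR), the direction of Junb (0.74 ± 0.15), and the part of shared reads in these values was not tested.

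Fosb (ENSMUSG00000003545, chromosome 7, 19302696 to 19310051) was nearly level in 3 of the groups, with 10.4 to 13.8 CPM in CETPtg vehicle, 11.2 to 17.2 in CETPtg evacetrapib and 12.02 to 15.4 in APPtg/CETPtg evacetrapib mice. With vehicle, the APPtg/CETPtg mice had 16.8, 48.6, 25.1 and 17.6 CPM. The value of 48.6 CPM in mouse S6 set much of the group's mean of 27.0 ± 14.9 CPM (SD, n = 4), while the lowest mouse of the group, S5, lay below CETPtg evacetrapib mouse D.

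Fosl2 (ENSMUSG00000029135, chromosome 5, 32135801 to 32157842), also called Fra-2 and more slowly induced than Fos, was the exception among the AP-1 genes. Its levels were 17.0, 23.6, 37.3 and 23.3 CPM in S1 to S4, and 29.3, 25.5, 29.8 and 27.8 CPM in A to D. They were 27.9, 36.0, 46.1 and 31.0 CPM in S5 to S8, and 41.2, 25.5, 36.6 and 46.1 CPM in E to H. Its highest mean was in APPtg/CETPtg evacetrapib mice, 37.4 ± 8.80 CPM, next to 35.3 ± 7.94 CPM in APPtg/CETPtg vehicle mice (SD, n = 4 each), and each group overlapped with its neighbour in this order.

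Egr4 (ENSMUSG00000071341, chromosome 6, 85511121 to 85513589) had 29.6, 35.9, 42.1 and 33.8 CPM in S1 to S4 and 31.7, 33.2, 42.0 and 38.4 CPM in A to D. Its levels in S5 to S8 were 47.6, 72.2, 62.9 and 47.5 CPM, and those in E to H 28.9, 22.9, 32.2 and 36.0 CPM. Again the APPtg/CETPtg vehicle mice were above the other 12 mice. The means were 57.5 ± 12.1 CPM in these mice and 30.0 ± 5.54 CPM in the treated mice of the same genotype (SD, n = 4 each).

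Egr2 (ENSMUSG00000037868, chromosome 10, 67535475 to 67542188) had the lowest counts of the set. It was at 2.49, 5.46, 6.15 and 4.30 CPM in S1 to S4, at 3.66, 3.39, 6.59 and 5.02 CPM in A to D, at 7.08, 8.61, 17.3 and 10.4 CPM in S5 to S8, and at 5.40, 1.38, 4.01 and 6.31 CPM in E to H. Mouse S5, the lowest of the APPtg/CETPtg vehicle mice, was still above mouse C, the highest of the others, and the group mean was 10.9 ± 4.50 CPM against 4.28 ± 2.15 CPM with evacetrapib (SD, n = 4 each).

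Egr1 (ENSMUSG00000038418, chromosome 18, 34859823 to 34864984) had the narrowest differences of the 3 Egr genes. Its CPM lay between 189 and 335 in CETPtg vehicle mice (median 275), between 239 and 304 in CETPtg evacetrapib mice (median 281) and between 282 and 387 in APPtg/CETPtg vehicle mice (median 331). In APPtg/CETPtg evacetrapib mice it lay between 126 and 256 (median 214), below every vehicle mouse of that genotype but overlapping with both CETPtg groups.

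Npas4 (ENSMUSG00000045903, chromosome 19, 4984355 to 4990316) differed from the others in how low it was in the treated APPtg/CETPtg mice. It had 15.9, 20.8, 11.5 and 24.6 CPM in S1 to S4 and 23.8, 14.3, 19.2 and 19.7 CPM in A to D. In S5 to S8 it had 24.0, 27.7, 26.1 and 31.5 CPM, and in E to H 11.97, 6.33, 10.7 and 11.4 CPM. The treated APPtg/CETPtg mice were below the treated CETPtg mice and below the vehicle mice of their own genotype without overlap, whereas the vehicle groups of the genotypes overlapped, S4 lying above S5. The means were 18.2 ± 5.72, 19.3 ± 3.90, 27.3 ± 3.18 and 10.1 ± 2.56 CPM in CETPtg vehicle, CETPtg evacetrapib, APPtg/CETPtg vehicle and APPtg/CETPtg evacetrapib mice (SD, n = 4 each).

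Nr4a1 (ENSMUSG00000023034, chromosome 15, 101254269 to 101274795) ranged from 61.8 to 99.6 CPM in CETPtg vehicle, from 66.6 to 118 in CETPtg evacetrapib, from 99.8 to 192 in APPtg/CETPtg vehicle and from 46.0 to 121 CPM in APPtg/CETPtg evacetrapib mice. Mouse S6, which had the highest Fosb and Egr4 of all mice, had the lowest Nr4a1 of its group (99.8 CPM), below treated mouse H (121 CPM). The treated and untreated APPtg/CETPtg mice therefore overlapped.

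Arc (ENSMUSG00000022602, chromosome 15, 74669083 to 74672570) had 98.9, 167, 121 and 160 CPM in S1 to S4 and 203, 170, 236 and 106 CPM in A to D. Its levels in S5 to S8 were 227, 205, 293 and 214 CPM, and in E to H 132, 50.7, 94.4 and 196 CPM. The APPtg/CETPtg vehicle mice were above the treated mice of their genotype and above the CETPtg vehicle mice, but not above CETPtg evacetrapib mouse C (236 CPM). Within the treated APPtg/CETPtg group Arc differed 3.86-fold between mice F and H, and the group mean was 118 ± 61.4 CPM (SD, n = 4).

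The first comparison was between evacetrapib and vehicle in mice with both transgenes. The fitted differences were below 0 for 9 of the genes, and Fosl2 had a log2 fold change of 0.08 ± 0.19 (SE), whose sign changed in 2 of 22 alternatives. The others ranged from -1.44 ± 0.21 for Npas4, which is 2.72-fold lower, and -1.42 ± 0.29 for Fos, 2.67-fold lower, to -0.68 ± 0.24 for Nr4a1. Between them lay Egr2 at -1.35 ± 0.35, Junb at -1.06 ± 0.16, Arc at -0.99 ± 0.29, Fosb at -0.98 ± 0.25, Egr4 at -0.94 ± 0.15 and Egr1 at -0.71 ± 0.17 on the log2 scale. Their median was -0.99, where that of all 18609 genes tested was -0.0011. For 8 of the 10, all but Fosl2 and Nr4a1, each treated mouse was below each vehicle mouse, against 2.32% of all genes. Without mouse S6 this held for 9, against 4.45% of all genes, and without F, S7 or G for 8, against 3.42% to 4.94%.

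A gene is said to be called where the quasi-likelihood test of edgeR gave a Benjamini-Hochberg adjusted p no higher than 0.05 and the difference was 5% or more. By this rule Npas4, Junb and Egr4, 3 of the 10, were lower with evacetrapib in APPtg/CETPtg mice, where 0.043% of all genes (8 of 18609, all of them lower) were called. Fos and Egr2 had larger differences than Egr4, with larger standard errors, and were not called. The Wald test of DESeq2 called 4 of the 10, Npas4, Junb, Egr4 and Fos (adjusted p = 0.039 for Fos), among 73 genes. In edgeR, 1677 of the 18609 genes had an unadjusted p below 0.05, 9 of the 10 among them (all but Fosl2). The calls were not stable to the choice of mice. Without mouse G 0 of the 10 were called, without S7 only Npas4, and without F only Npas4 and Junb, although the log2 fold change of Npas4 was -1.47 ± 0.24 without G. With only the 12 libraries of index columns 9 and 12, which leaves 2 treated mice of this genotype, 0 were called and the median was -0.80.

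In CETPtg mice without the APP transgene, 0 of the 10 genes were called, as were 0 of all genes (0%), and the Wald test of DESeq2 likewise called 0. At an unadjusted p below 0.05 there were 1079 genes, 0 of the 10 among them. The log2 fold changes lay between 0.01 ± 0.35 for Egr2 and 0.39 ± 0.29 for Arc, with a median of 0.09. The groups overlapped for every one of them, and 0 of the 10 had all treated mice above all vehicle mice (2.1% of all genes). Apart from that of Arc, the values were smaller than their standard errors, and the sign of 8 of the 10 (all but Fosl2 and Arc) changed under at least 1 of the alternative settings. Over both genotypes, 0 of the 10 were called in edgeR (0.0107% of all genes) and 0 by DESeq2. An unadjusted p below 0.05 in edgeR was found for 7 of the 10, and for 1472 of all 18609 genes tested. The log2 fold changes of the 10 ran from -0.66 for Egr2 to 0.12 for Fosl2.

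The difference between the evacetrapib effects of the genotypes was negative for all 10 genes. It was -1.53 ± 0.29 for Npas4, -1.48 ± 0.40 for Fos, -1.38 ± 0.41 for Arc, -1.37 ± 0.50 for Egr2, -1.16 ± 0.22 for Junb and -1.08 ± 0.35 for Fosb on the log2 scale. The remaining values were -0.98 ± 0.20 for Egr4, -0.77 ± 0.33 for Nr4a1, -0.75 ± 0.25 for Egr1 and -0.06 ± 0.28 for Fosl2. By the interaction test in edgeR, 0 of the 10 and 0 of all genes (0%) were called, with a smallest adjusted p of 0.263 among the 10, so that a different response in the genotypes was not established for any of them. At an unadjusted p below 0.05 there were 1271 genes, 9 of the 10 among them (all but Fosl2), and the Wald test of DESeq2 called 2 genes and 0 of the 10. The sign of the value for Fosl2 changed in 4 of 21 alternatives. When genes with low counts were kept in the fit, 7 of the 10 were called in this test, and the standard errors were smaller, 0.20 in place of 0.29 for Npas4.

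**Figure D2:**
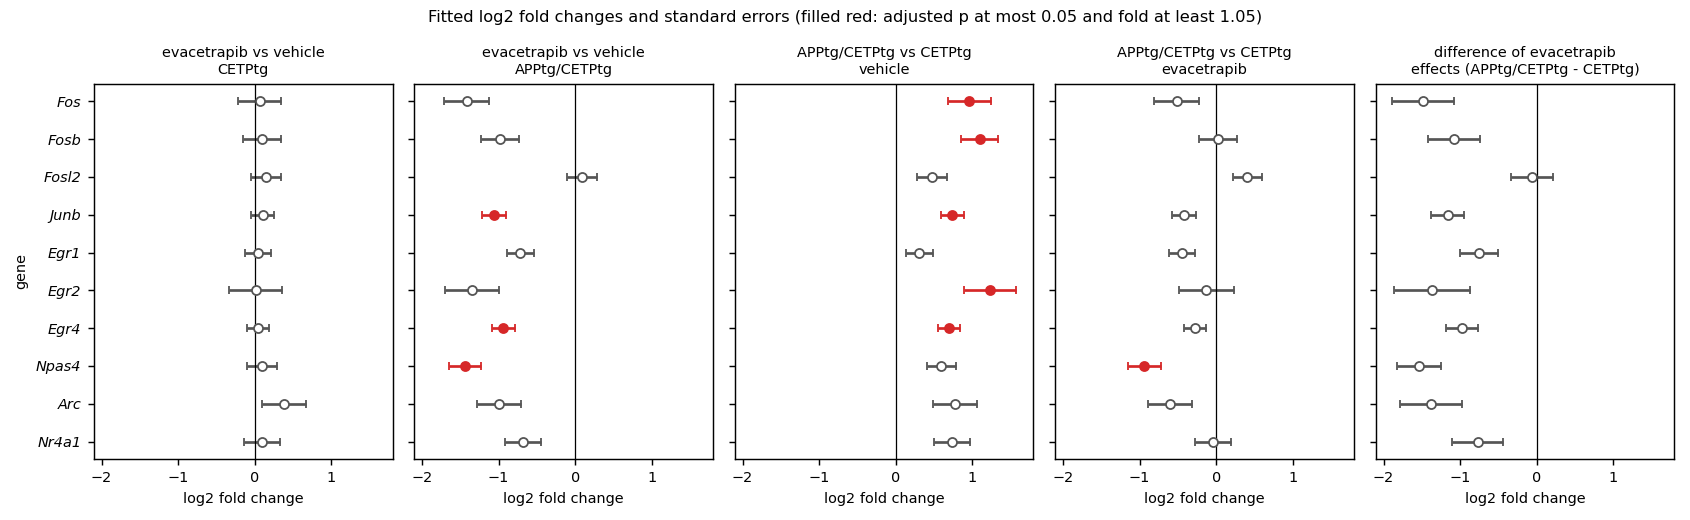
Fitted log2 fold changes (x axes) with standard errors (bars) of the 10 genes (y axis) in 5 comparisons, with called genes in filled red. The values lie near 0 in CETPtg mice, below 0 for 9 genes in treated APPtg/CETPtg mice, and above 0 for all 10 in APPtg/CETPtg vehicle mice relative to CETPtg vehicle mice.

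The second comparison was between the genotypes without drug. In vehicle mice all 10 were higher in APPtg/CETPtg than in CETPtg, and their median was 0.74 on the log2 scale. The largest were Egr2 at 1.24 ± 0.34 (2.36-fold), Fosb at 1.10 ± 0.24 (2.14-fold) and Fos at 0.96 ± 0.28 (1.95-fold), and the smallest Egr1 at 0.31 ± 0.17. Arc was at 0.78 ± 0.29, Junb at 0.74 ± 0.15, Nr4a1 at 0.73 ± 0.23, Egr4 at 0.70 ± 0.14, Npas4 at 0.60 ± 0.20 and Fosl2 at 0.47 ± 0.20 on the log2 scale. For 7 of the 10 (not Fosl2, Egr1 and Npas4) the groups did not overlap, against 9.62% of all genes higher without overlap.

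Fos, Fosb, Junb, Egr2 and Egr4, 5 of the 10, were called in this comparison of vehicle mice, in which 10.4% of all genes were called. The APPtg/CETPtg vehicle mice enter this comparison and that of treatment within their genotype, so the upward and the downward values rest on the same 4 mice and are not independent of each other. With 1 mouse left out, between 3 (without S1 or S7) and 8 (without F) of the 10 were called. The call of Fos was lost without S1, S3, S6 or S7 and that of Egr2 without S1, S4, S7 or S8, while Fosb, Junb and Egr4 were called in each such fit. Without S6, Fosb had a log2 fold change of 0.66 in place of 1.10.

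Under evacetrapib, the fitted differences between the genotypes were below 0 for 8 of the 10 genes. Npas4 was called lower in APPtg/CETPtg than in CETPtg mice, at a log2 fold change of -0.94 ± 0.21 (1.91-fold), the only one of the 10, where 2.99% of all genes were called. It was also the only one whose groups did not overlap downward (5.16% of all genes). This call was lost without mouse A, C or F, with log2 fold changes of -0.82, -0.94 and -0.77. The others ranged from -0.60 ± 0.29 for Arc and -0.52 ± 0.29 for Fos, through -0.04 ± 0.24 for Nr4a1 and 0.02 ± 0.25 for Fosb, to 0.41 ± 0.19 for Fosl2, and their groups overlapped. The signs of Fosb, Egr2 and Nr4a1 changed under some alternatives.

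When the 4 groups were ordered by mean, APPtg/CETPtg vehicle mice came first for 9 genes and APPtg/CETPtg evacetrapib mice last for 7. The exceptions at the low end were Fosb, Fosl2 and Nr4a1, which had their lowest mean in CETPtg vehicle mice. Only the step below the top group separated mice without overlap. It did so for Fos, Junb, Egr2, Egr4 and Npas4 above CETPtg evacetrapib mice and for Fosb above APPtg/CETPtg evacetrapib mice. The order was set by these same means, and the share of all genes with such a step was not computed. For Npas4 the step was narrow, with 23.95 CPM in S5 and 23.82 CPM in A. Neighbours lower in the order overlapped for every gene.

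Single mice stood out across the set. Mouse F had the lowest value of all 16 mice for 8 of the 10 genes and the lowest of its group for all 10. Mouse S1 was the lowest CETPtg vehicle mouse for 9 genes and the lowest of all for the other two, Fosb and Fosl2. At the high end, S7 had the maximum of all mice for 6 genes, S6 for Fosb and Egr4, S8 for Npas4 and H for Fosl2. On the mean z-score of the 10 genes (log2 CPM centred and scaled over the 16 mice), F was at -1.96 and S1 at -1.06, and S5 to S8 at 0.63, 1.22, 1.59 and 0.77. The remaining 10 mice lay between -0.56 (G) and 0.38 (C).

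**Figure D3:**
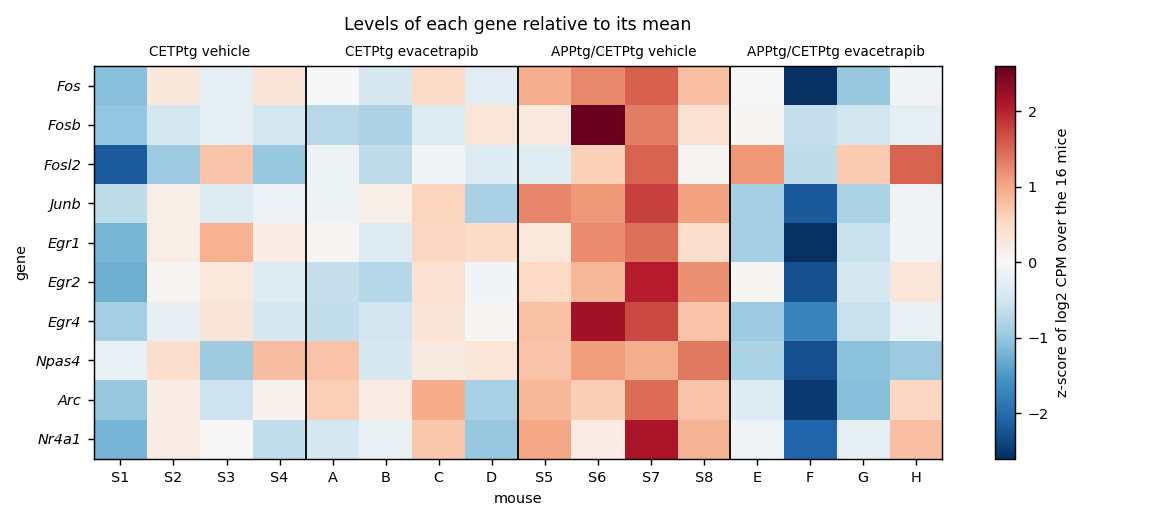
z-scores of log2 CPM over the 16 mice (color scale) for each of the 10 genes (rows) in each mouse (columns, by group). Mice F and S1 are below the mean for all 10 genes, and mice S6, S7 and S8 are above it for all 10.

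The spread within groups was wide for most of the set. The SD of log2 CPM within groups was 0.66 for Egr2, 0.57 for Fos, 0.53 for Arc, 0.42 for Nr4a1 and 0.40 for Fosb, against a median of 0.14 over all genes tested. Npas4 had 0.36, Fosl2 0.34, Egr1 0.31, Junb 0.28 and Egr4 0.25. Even for Egr4, the steadiest, 70.1% of all genes had a smaller SD, and for Egr2 97.4% had.

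Much of the variation was shared. Over the 16 mice the median Pearson r of log2 CPM over the 45 pairs of genes was 0.74, from -0.07 for Fosl2 and Npas4 to 0.92 for Fos and Junb. With the mean of each group removed the median was 0.66, and the highest r was 0.94, between Junb and Arc. The points are mice of 4 groups, and the values are a description. Fosl2 stood apart over all mice, with a median r of 0.40 with the other genes, but once group means were removed its median r was 0.69 and its r with Egr1 was 0.91. Fosl2 thus followed the others from mouse to mouse within groups while its group means differed from theirs. Fosb and Npas4 followed the others least within groups, with median r of 0.29 and 0.36.

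**Figure D4:**
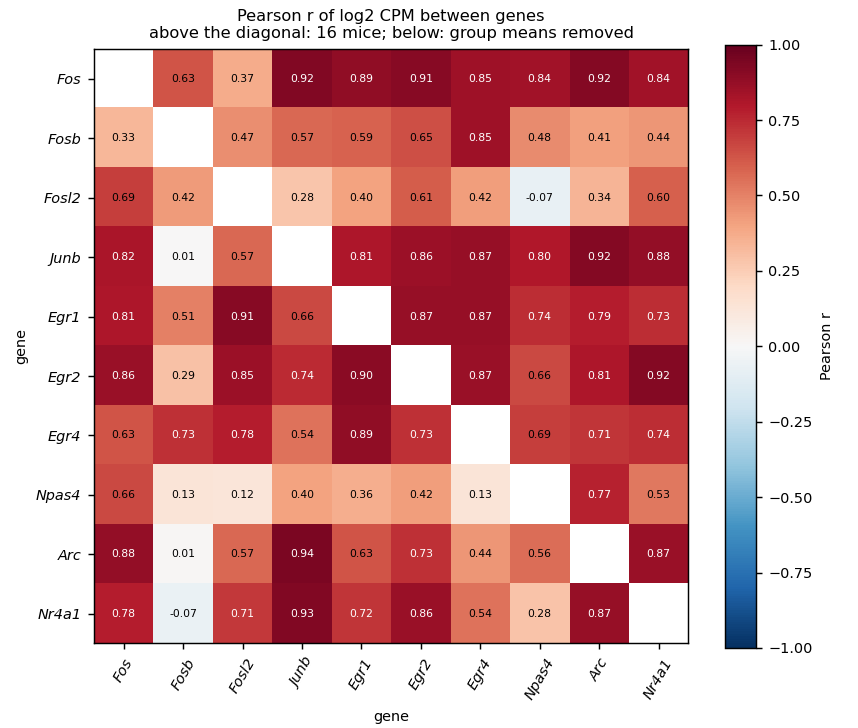
Pearson r of log2 CPM between each pair of the 10 genes over the 16 mice (above the diagonal) and with the mean of each group removed (below the diagonal), on a color scale from -1 to 1. The palest cells are mostly those of Fosl2 above the diagonal and of Fosb and Npas4 below it. Some cells of Fosb above the diagonal are pale as well, such as those with Arc (0.41) and Nr4a1 (0.44).

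The genes outside the set whose log2 CPM followed the mean z-score of the 10 most closely over the 16 mice were 1700016P03Rik (r = 0.88), Trib1 (0.86), Ccn1 (0.86), Tiparp (0.84), Dusp1 (0.82), Ier2 (0.81), Btg2 (0.81), Dusp6 (0.80), Gm13331 (0.80) and Arl4d (0.80). Among them are 2 of the 15 tested genes of a list of other immediate early transcription factors and 5 of the 30 of a list of activity-induced effectors and feedback genes. 1700016P03Rik (chromosome 11, 75172560 to 75177633) is a noncoding transcript that contains the positions of the microRNA genes Mir212 and Mir132, which CREB is known to induce in neurons. It had 3.70 ± 1.17, 3.90 ± 1.13, 7.29 ± 1.73 and 3.94 ± 1.37 CPM in CETPtg vehicle, CETPtg evacetrapib, APPtg/CETPtg vehicle and APPtg/CETPtg evacetrapib mice (SD, n = 4 each). With group means removed, the closest were Gm45855 (r = 0.94), Zfp105 (0.90), Sdhc (0.90), Apold1 (0.89) and Dpagt1 (0.88), none of which is on these lists. Gm45855 and Gm13331 were barely detected, with means of 0.254 and 0.253 CPM over the 16 mice.

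Of the 15 other immediate early transcription factors tested, 0 were called in edgeR between treated and untreated APPtg/CETPtg mice, and DESeq2 called 3 lower. An unadjusted p below 0.05 in edgeR was found for 6 of the 15, and for 1677 of all 18609 genes. The log2 fold changes of the 15 were all below 0, with a median of -0.20. In vehicle mice, where 10.4% of all genes were called between the genotypes, the 15 had a median of 0.39. Of them, 6 were called higher in APPtg/CETPtg than in CETPtg and 0 lower. Named by smallest p, these include Btg2, an antiproliferative factor (0.86 ± 0.19, adjusted p = 0.00872), Klf2 (0.54 ± 0.12, adjusted p = 0.0102) and Jun, the classical partner of Fos (0.41 ± 0.09, adjusted p = 0.00718), all by edgeR. With 1 mouse left out, between 3 (without S6) and 6 of the 15 were called. Jun did not follow the set in mouse F, where it had 65.6 CPM, the second highest of the 16 mice.

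Among the 30 effectors and feedback genes, 3 were called lower with evacetrapib in APPtg/CETPtg mice and 0 higher (5 lower by DESeq2). Arl4d, a small GTPase of the ARF family, fell by 0.81 on the log2 scale (SE 0.11, adjusted p = 0.00856). It had 35.0 ± 3.78 CPM with vehicle and 19.9 ± 2.36 CPM with evacetrapib (SD, n = 4 each). Ccn1, a secreted matrix protein, fell by 1.28 (SE 0.22, adjusted p = 0.0281), and Gadd45g, a stress sensor, by 0.80 (SE 0.13, adjusted p = 0.0281, edgeR in each case). Arl4d was called in 20 of 22 alternatives, not without mouse G nor in columns 9 and 12 only. Ccn1 and Gadd45g were called in 13 of 22 each, and both lost the call without F, G, H, S2 or S4, in the mice of the 2 groups alone and in columns 9 and 12 only. Without S5 or S7 Ccn1 also lost it, as did Gadd45g without B or S6, and over the 22 alternatives the log2 fold change of Ccn1 lay between -1.40 and -1.14 and that of Gadd45g between -0.93 and -0.65.

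In vehicle mice, 10.4% of all genes were called between the genotypes. Of the 30 effectors, 9 were called higher in APPtg/CETPtg than in CETPtg and 0 lower. By smallest p these include Arl4d (0.70 ± 0.11, adjusted p = 0.000935), Gadd45b (0.84 ± 0.15, adjusted p = 0.00289), Gadd45g (0.66 ± 0.13, adjusted p = 0.00475), Ccn1 (0.95 ± 0.21, adjusted p = 0.008) and Ptgs2, which encodes cyclooxygenase-2 (0.68 ± 0.16, adjusted p = 0.0137), each from edgeR. These 5 were called in 21 of 21 alternatives, as were Btg2, Klf2 and Jun above, and with 1 mouse left out between 5 (without S4) and 10 of the 30 were called. Another of the 9, Nptx2, rested on mouse S6, named here after its values were seen, which had 289.5 CPM where the other 15 mice had at most 90.6. Without S6 its log2 fold change was 0.26 in place of 1.24.

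**Figure D5:**
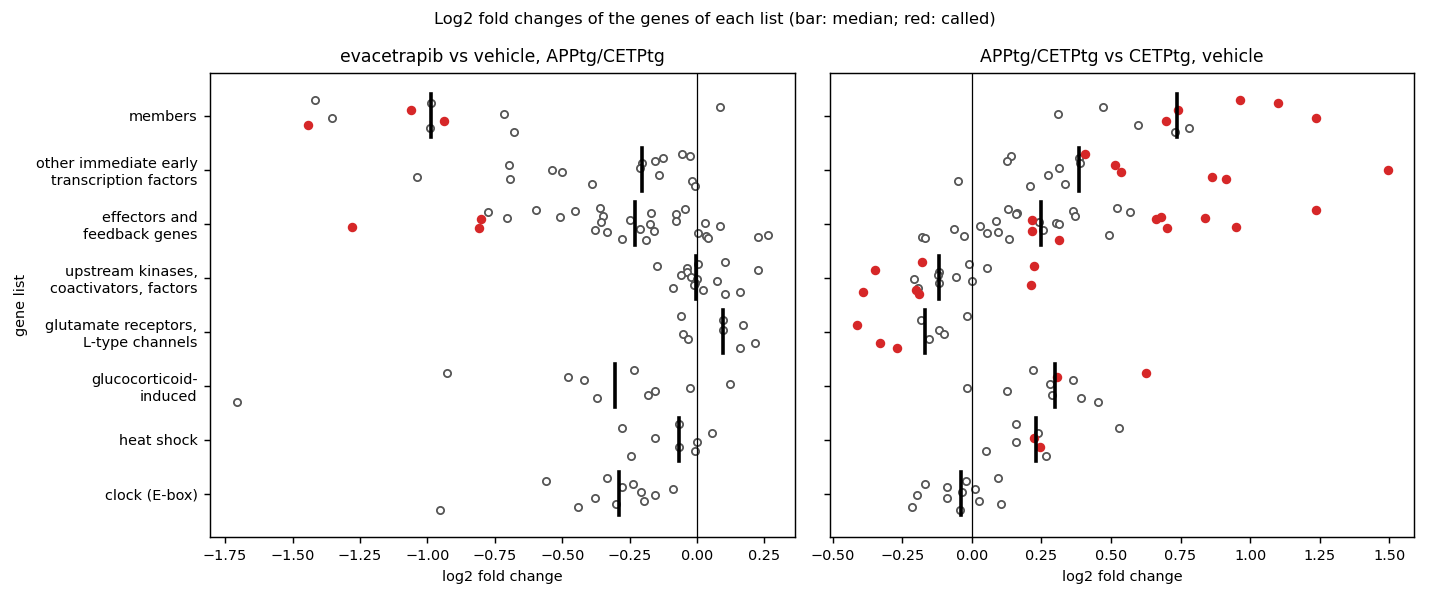
Log2 fold changes (x axes) of each gene (points) of the set and of 7 other lists (y axis), between treated and untreated APPtg/CETPtg mice on the left and between the vehicle mice of the genotypes on the right, with the list median as a bar and called genes in red. The medians of the set are -0.99 and 0.74, farther from 0 than those of the other 7 lists plotted. Among lists not plotted, medians farther from 0 were those of choroid plexus genes in the first comparison (-1.16) and olfactory bulb genes in the second (-0.83).

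Of 16 kinases, coactivators and factors that act upstream of the set, 0 were called between treated and untreated APPtg/CETPtg mice in edgeR or DESeq2 (median log2 fold change -0.0031, 3 with an unadjusted p below 0.05). In vehicle mice, 10.4% of all genes were called between the genotypes. Of the 16, 2 were called higher and 5 lower in APPtg/CETPtg. Among those lower were Crebbp, the coactivator of CREB (-0.39 ± 0.05, adjusted p = 0.000484), and Elk4, a partner of SRF (-0.35 ± 0.08, adjusted p = 0.0104, edgeR for both). The number called lower in vehicle mice fell to 2 without S1, S3, S5 or S8, with Crebbp and Elk4 called in each alternative. Crebbp was also called lower under evacetrapib (-0.25 ± 0.05, adjusted p = 0.0211), except without A, C or F, where Npas4 lost its call too, and in columns 9 and 12 only. Of 8 glutamate receptor and L-type calcium channel genes, 0 were called with evacetrapib in APPtg/CETPtg mice in edgeR or DESeq2 (1 had an unadjusted p below 0.05). In vehicle mice 3 were called lower in APPtg/CETPtg than in CETPtg, and 1 without S8.

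Lists that could report on handling or time of day were read beside these. Between treated and untreated APPtg/CETPtg mice, 1677 of all 18609 genes tested had an unadjusted p below 0.05 in edgeR. Of 10 glucocorticoid-induced genes, 0 were called in edgeR between treated and untreated APPtg/CETPtg mice (6 had an unadjusted p below 0.05, and DESeq2 called 3 lower), and 9 of the 10 values lay below 0, their median at -0.30. In vehicle mice, 10.4% of all genes were called between the genotypes. Of these 10 genes, 2 were called higher in APPtg/CETPtg than in CETPtg, between 0 and 3 with 1 mouse left out. Their summed level was 548 to 643 CPM in APPtg/CETPtg vehicle mice and 447 to 549 CPM in the other 12 mice. Of 8 heat shock genes, 0 were called between treated and untreated APPtg/CETPtg mice in edgeR or DESeq2 (1 had an unadjusted p below 0.05), and 2 were called higher in the APPtg/CETPtg vehicle mice, between 0 and 3 with 1 mouse left out. Of 12 clock genes driven by E-box elements, 0 were called between treated and untreated APPtg/CETPtg mice (9 had an unadjusted p below 0.05, and DESeq2 called 1 lower). The fitted values of all 12 were below 0 with evacetrapib in each genotype, with medians of -0.29 in APPtg/CETPtg and -0.17 in CETPtg mice. One of them, Bhlhe41, was called over all mice (-0.39 ± 0.06, adjusted p = 0.0233 in edgeR), in 10 of 22 alternatives. The part of stress or of the hour of collection in the levels of the set was not tested, and the labels give no hour.

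Markers of brain regions and cell types differed between mice as well. The summed level of 7 olfactory bulb genes ran from 22.8 to 219 CPM in APPtg/CETPtg vehicle mice and from 42.2 to 228 CPM in treated mice of that genotype, and that of 7 choroid plexus genes from 18.1 to 466 and from 14.9 to 30.2 CPM. The sums of 11 genes of excitatory cortical neurons were 2151 to 2799 and 2071 to 2495 CPM, and those of 11 striatal genes 1864 to 2556 and 1887 to 2235 CPM. Among these 4 lists 0 genes were called between treated and untreated APPtg/CETPtg mice, and 0 markers were at 0 in all mice. The choroid plexus list had a median log2 fold change of -1.16 in this comparison, farther from 0 than that of the set, with 6 of 7 genes below 0 and 4 at an unadjusted p below 0.05. The olfactory bulb list had a median of 0.93, with 7 of 7 above 0 and 0 at an unadjusted p below 0.05. The cortical and striatal lists had medians of -0.08 and -0.13, with 1 and 2 genes at such a p. Over all genes tested, 1677 of 18609 were at such a p in this comparison (edgeR). Between vehicle mice the medians on the log2 scale were 0.41 for choroid plexus and -0.83 for olfactory bulb genes. In both lists 0 were called and 0 were at an unadjusted p below 0.05, where 4687 of all genes tested were (edgeR). Mouse F, the lowest for most of the set, had the second highest sum of cortical genes (2495 CPM). It also had the lowest sum of 9 oligodendrocyte genes (3468 CPM), followed by S6 (3583 CPM), with the others up to 5290 CPM. Mouse S6 had the highest cortical (2799 CPM), effector (2948 CPM) and heat shock (2790 CPM) sums and the lowest striatal sum (1864 CPM). The part of regional sampling in the levels of the set was not tested.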

How the data were processed

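Poly(A) RNA of the cerebrum of 16 mice was sequenced in directional paired-end libraries, 1 per mouse. The authors trimmed the reads with Trimmomatic 0.39, aligned them to mm10 with STAR 2.7.8a, marked duplicates with Picard 2.0.1 and deposited raw counts of reads per gene from HTSeq-count, with 1 column per mouse and no pooling. The annotation and strand setting of the counting are not given in the sources used here, and 55227 of the 55487 gene identifiers were found in GENCODE M21 on GRCm38, from which coordinates were taken. Groups were taken from the labels, and 0 columns were left unmapped. Pairs of mice of 1 group differed by 4.75 to 21.1 in chi-square per degree of freedom, beyond counting noise, so each was kept as a separate replicate. The p-values set differences between groups against the spread between mice.

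The 18609 genes that reached 10 counts in 4 or more mice were fitted in edgeR 4.0.16 (R 4.3.3) with TMM scaling, a mean for each of the 4 groups (treatment and genotype terms for the comparison over all mice) and the two-sided quasi-likelihood test, with p-values adjusted over all genes tested by the Benjamini-Hochberg method. The procedure was tested on simulated data. Levels are means ± SD of CPM, and log2 CPM was computed with a prior count of 2. Promoter sequences were those of RefSeq on GRCm38.p6. Alternatives were the size factors of DESeq2 1.42.0, its Wald test, no filter, a filter requiring 10 counts in every mouse, fits of the compared groups alone, a fit without the genotype term, leaving out each mouse in turn and, chosen after seeing the data, the 12 libraries of index columns 9 and 12.

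The 10 genes and the other lists were chosen with earlier results of these data known. Genes outside the set were named by a rule. These were the 10 with the highest correlation with the mean z-score of the set over the 16 mice, the 5 with the highest once group means were removed, and genes of the lists of other early transcription factors, effectors, upstream, glucocorticoid-induced, heat shock and clock genes that were called, up to 10 with the smallest p in a comparison. Thy1 served as the check of genotype, and genes named after their values were seen are marked so.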

Additional observations from a re-analysis of the deposited data

How the results depend on the processing

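Over all mice, the 2 genes called became 59 with the Wald test of DESeq2, 35 without the filter on low counts, 1 without the genotype term and 0 in index columns 9 and 12 only. In APPtg/CETPtg mice the 8 genes called with evacetrapib became 73, 88, 2 (only the mice of the compared groups) and 0 (columns 9 and 12). The 3 of the 10 became 4 with DESeq2, 9 without the filter, 1 in the compared groups alone (Npas4) and 0 in columns 9 and 12. In CETPtg mice 9 genes were called without the filter. The interaction test called 2 genes with DESeq2 and 29 without the filter, 7 of the 10 among them. Between vehicle mice, 9 of the 10 and 1672 genes were called without the filter, against 5 and 1934 with it. Between evacetrapib mice, the 556 genes called became 1135 with DESeq2, 327 in the compared groups alone and 2 in columns 9 and 12, and 1 of the 10 became 3 without the filter and 0 in columns 9 and 12. For these changes the cause was not tested, except that fewer mice entered the fits of the compared groups and of columns 9 and 12.

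With 1 mouse left out, the genes called ranged from 0 to 8 over all mice, from 0 (without G) to 14 with evacetrapib in APPtg/CETPtg mice, from 0 to 1 in the interaction test, from 909 (without S3) to 1998 (without B) between vehicle mice and from 91 (without A) to 858 (without B) between evacetrapib mice. Of the 10, between 0 and 3, 3 and 8, and 0 and 1 were called in APPtg/CETPtg mice, between vehicle mice and between evacetrapib mice. The median log2 fold change of the set lay between -1.12 and -0.86 in APPtg/CETPtg mice, between 0.63 and 0.82 between vehicle mice, between -0.48 and -0.20 between evacetrapib mice and between -0.01 and 0.16 in CETPtg mice. Of the values of single genes of the set under all alternatives, 1245 kept their side of the threshold, 32 gained a call, 23 lost one and 0 called values changed sign. Most of the 60 values of the main fit were not called and could not lose a call. The 23 losses came from the 3 calls in APPtg/CETPtg mice, the 5 between vehicle mice and the 1 between evacetrapib mice. Columns 9 and 12 hold all vehicle mice, so the comparison between vehicle mice has no such value. No paired analysis was possible because the labels give the mice of the groups no shared replicate number.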
